A study of Mus musculus with 3 samples.

Results

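Hair cell fate transcription factors are the nuclear proteins that turn a cochlear progenitor into a hair cell (HC) and then set it as an inner (IHC) or an outer hair cell (OHC). They were followed here as 8 genes chosen by symbol, *Atoh1*, *Pou4f3*, *Gfi1*, *Barhl1*, *Lhx3*, *Insm1*, *Ikzf2* and *Tbx2*, out of 32285 genes in the count tables. All 8 had at least 1 UMI, and 6 of them had enough to be tested between HC classes in the reported fit. The cells came from dissociated cochlear tissue of C57/B6 mice, with no transgene or treatment named in the labels, at postnatal day 14 (P14) and P28. P14 was represented by 1 library and P28 by 2 biological replicates, each pooled from 7 mice and 14 cochleae, so differences among single animals cannot be seen. By the methods of the study, epithelium of the basal turn was partly lost in dissection, so that the HCs came mainly from the middle and apical turns.

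In the 3′ assay used, 1 unique molecular identifier (UMI) stands for 1 captured RNA molecule, whatever the length of the gene, so levels of different genes can be set side by side as CPM (the UMIs of a gene scaled to the same total in every class). Barcodes with 200 to 6000 genes and at most 15% mitochondrial UMIs were kept. These were 1662 at P14 and 5651 and 7065 in the P28 replicates, with 7432047, 24596587 and 23300859 UMIs. Values are given in the order P14, P28 replicate 1 and P28 replicate 2. OHC-like cells numbered 277, 367 and 285 and IHC-like cells 60, 113 and 76, named from marker genes after clustering without the 8 factors. These markers set the names, so their levels describe the classes and do not test them. *Slc26a5* (prestin, the motor protein of OHCs) was at 2026, 527 and 652 CPM among OHC-like cells but 3.96, 0 and 1.68 CPM in the IHC-like class. *Slc17a8* (the vesicular glutamate transporter of IHCs) was at 1593, 1681 and 1852 CPM among IHC-like cells and 16.0, 78.3 and 76.0 CPM in the OHC-like class. The IHC marker *Otof* was at 3328, 3046 and 2935 CPM in the former and 69.8, 492 and 437 CPM in the latter. The OHC marker *Ocm* was at 31352, 17037 and 17427 CPM among OHC-like cells and 151, 270 and 323 CPM among IHC-like cells. Median depths were 6510, 5251 and 3754 UMIs in OHC-like cells but 1025.5, 9310 and 8007.5 UMIs in IHC-like cells, and those at P14 were therefore the shallowest.

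*Atoh1* is the basic helix-loop-helix factor that starts HC differentiation, *Pou4f3* and *Gfi1* act after it and are needed for HCs to survive, and *Barhl1* and *Lhx3* are homeodomain proteins of the same program. *Insm1* is a zinc finger protein that keeps young OHCs from taking on IHC genes, *Ikzf2* (Helios) drives the mature OHC program, and *Tbx2* is a T-box factor that makes and keeps IHCs. *Atoh1* and its relatives bind E-boxes, here searched on both strands as CAGNTG, and homeodomain proteins often bind TAATTA. RefSeq start sites were at hand for 4 of the factors (*Atoh1*, *Gfi1*, *Barhl1* and *Lhx3*). Of their 7 windows of 250 bases, 4 held an E-box, from 3 factors, and 0 held TAATTA. Over 32851 windows of that length 44.8% held the E-box and 4.84% TAATTA. With the 50 bases after the start added, 1 window of *Barhl1* held TAATTA, as did 5.29% of all such windows. The window of *Barhl1* is shown because that gene differed most with age among the abundant factors. It lies at chr2:28916669-28916918 on the minus strand of GRCm38.p6, directly upstream of the gene, and the E-box in capitals begins 99 bases before the start. The match is a description of these letters and no evidence of binding.
Barhl1: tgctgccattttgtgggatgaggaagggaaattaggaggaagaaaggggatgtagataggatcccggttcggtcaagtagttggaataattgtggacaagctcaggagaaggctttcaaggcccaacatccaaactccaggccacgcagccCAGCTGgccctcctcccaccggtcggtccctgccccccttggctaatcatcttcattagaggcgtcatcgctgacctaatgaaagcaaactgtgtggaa

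The factors fell into distinct patterns across the classes. *Pou4f3*, *Gfi1*, *Lhx3* and *Barhl1* were found nearly only in HCs, of both classes. *Ikzf2* was an OHC gene with a low level in many other cells. *Tbx2* was high in IHC-like cells and in several nonsensory clusters but near background in OHC-like cells. *Atoh1* and *Insm1* were close to the limit of detection, with 11 and 21 UMIs in all. Of all UMIs in the kept cells, HCs held 98.0% for *Pou4f3* (of 5640), 98.3% for *Gfi1* (of 2076), 98.1% for *Lhx3* (of 470) and 97.6% for *Barhl1* (of 762), against 53.5% for *Ikzf2* (of 5876) and 22.2% for *Tbx2* (of 3837). By library the share was 80.5%, 48.3% and 39.5% for *Ikzf2* and 28.2%, 26.5% and 16.7% for *Tbx2*. HCs were 20.3%, 8.49% and 5.11% of the kept cells but a larger share of the kept UMIs. OHC-like cells held 1876234, 2491245 and 1394356 UMIs and IHC-like cells 252424, 969144 and 594604.

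**Figure D1:**
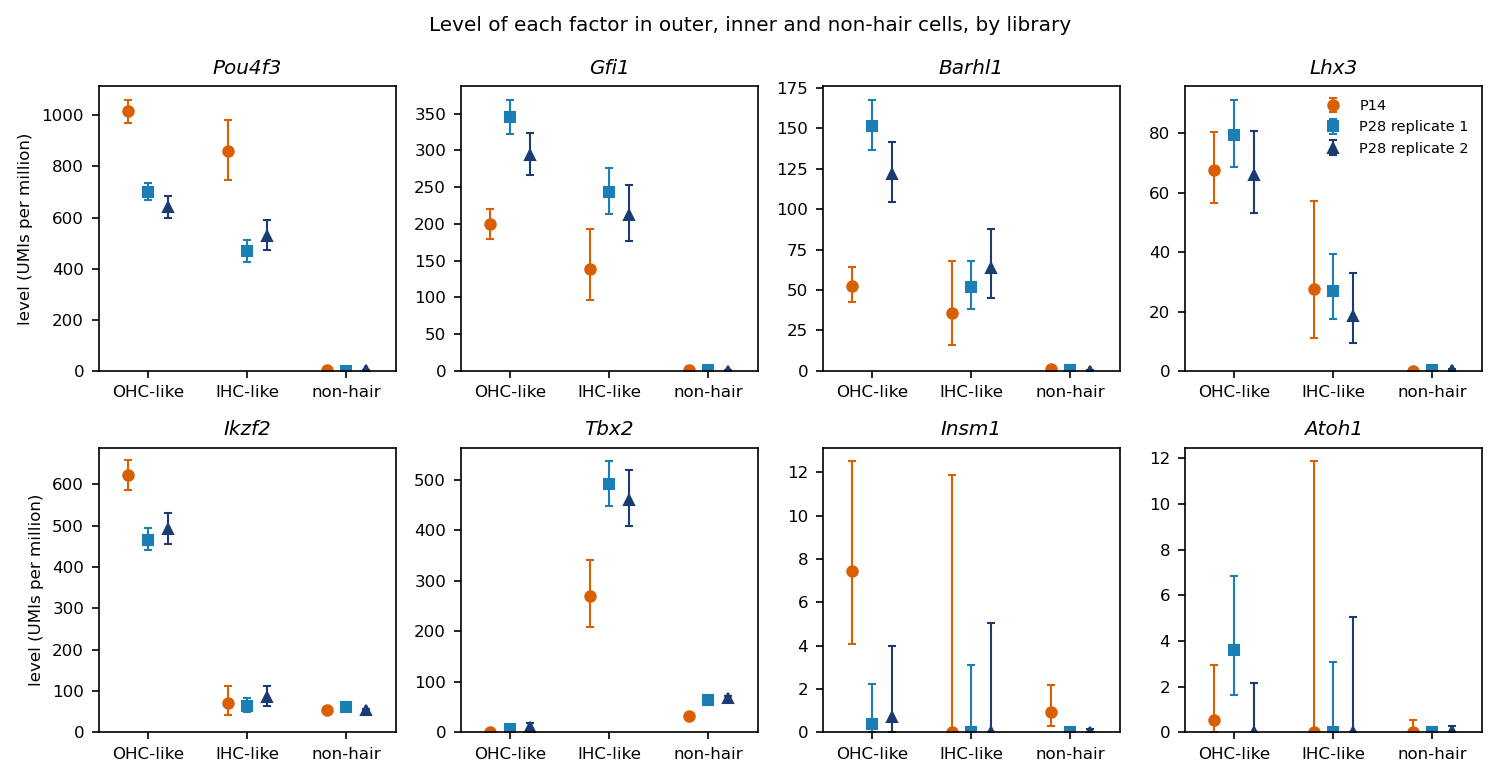
Level of each factor (CPM, linear axes that differ between panels) in OHC-like, IHC-like and all non-hair cells, with 1 point per library and bars for the exact 95% Poisson interval. The factors *Pou4f3*, *Gfi1*, *Barhl1* and *Lhx3* sit above the non-hair cells in both HC classes, *Ikzf2* stands out in OHC-like and *Tbx2* in IHC-like cells, and the scales of *Insm1* and *Atoh1* end near 12.

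The first question was which factors mark HCs at these ages. *Pou4f3* lay at 1015, 701 and 641 CPM among OHC-like cells, and its IHC-like levels were 860, 468 and 528 CPM, beside 5.09, 1.51 and 2.39 CPM in all cells other than HCs. It was the most abundant of the 8 factors in OHC-like cells in every library. *Gfi1*, a zinc finger repressor, lay at 199, 345 and 294 CPM among OHC-like cells, while IHC-like cells had 139, 244 and 212 CPM and other cells at most 1.89 CPM. *Barhl1* reached 52.8, 152 and 122 CPM among OHC-like cells, with 35.7, 51.6 and 63.9 CPM for the IHC-like class. *Lhx3* reached 67.7, 79.5 and 66.0 CPM in the former and 27.7, 26.8 and 18.5 CPM in the latter. The non-hair cells had 0, 3 and 6 UMIs of *Lhx3* and 5, 8 and 5 of *Barhl1*. No HC sum overlapped a non-hair sum for any of these 4 factors.

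OHC-like cells were compared with the cells other than HCs with the quasi-likelihood test of edgeR on sums of 3 libraries against 3, with a term for the library and p-values adjusted after Benjamini and Hochberg over 13010 genes. Of the 6 factors tested 5 were higher, where 23.9% of all genes were, and 1 was lower, where 29.9% were. The log2 fold change was 8.24 for *Pou4f3* (SE 0.38, adjusted p = 0.00134 by edgeR), with 8.46 for *Gfi1*, 8.62 for *Lhx3* and 8.19 for *Barhl1*. The median over the 6 factors was 8.22, beside -0.09 over all genes. Factors with a handful of UMIs in the non-hair cells, such as *Lhx3* and *Barhl1*, passed the filter on low counts only through the OHC-like sums. For them the call could only be higher or none, so their part in the count of 5 is no support. The size of their difference depends on the prior count. *Ikzf2* was higher by 3.27 (SE 0.15, adjusted p = 0.00136 by edgeR) and *Tbx2* lower by -3.25 (SE 0.51, adjusted p = 0.0109 by edgeR), and each kept its direction in 3 of 3 libraries.

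In IHC-like cells 5 of the 6 factors were higher than in the cells other than HCs, where 13.3% of 12672 genes were, and 0 were lower, where 22.3% were. *Pou4f3* was higher by 7.59 on the log2 scale (SE 0.30), *Gfi1* by 7.74 (SE 0.52), *Barhl1* by 6.81 (SE 0.49) and *Lhx3* by 6.69 (SE 0.59), with adjusted p-values from 6.83e-05 to 0.000437 by edgeR. *Tbx2* was 6.39-fold higher (log2 2.68, SE 0.19, adjusted p = 0.000232 by edgeR). Here too *Lhx3* and *Barhl1* passed the filter on low counts only through the HC sums, so that their call could only be higher or none. *Ikzf2* did not pass the test in IHC-like cells, with a log2 fold change of 0.16 (SE 0.22, 95% interval -0.27 to 0.58, adjusted p = 0.608). Among relatives of the factors by family, 6 of 13 were tested against non-hair cells in each HC class. *Ikzf5* and *Insm2* were higher in OHC-like cells and *Ikzf5* in IHC-like cells, while 4 and 2 were lower. These names were chosen after their values were seen. *Insm2*, the relative of *Insm1*, had 14, 11 and 7 UMIs in OHC-like and 0 in IHC-like cells.

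The next comparison asked which factors separate OHCs from IHCs. Between OHC-like and IHC-like cells 5 of the 6 factors tested were higher in OHC-like cells, where 16.8% of 9484 genes were, and *Tbx2* was lower, where 17.1% were. The 2 fate factors had the largest differences, in opposite directions. *Ikzf2* lay at 621, 466 and 492 CPM among OHC-like cells, and IHC-like cells had 71.3, 65.0 and 85.8 CPM, without overlap. Its level was 7.66-fold higher in OHC-like cells (log2 2.94, SE 0.18, adjusted p = 3.5e-06 by edgeR, 3 of 3 libraries). *Tbx2* lay at 269, 491 and 461 CPM among IHC-like cells, and OHC-like cells had 0.533, 6.82 and 11.5 CPM, again without overlap. The fitted log2 fold change was -5.97 (SE 0.33, adjusted p = 2.26e-06 by edgeR), and it rests on 1, 17 and 16 UMIs in OHC-like cells. Red blood cell-like cells, which should lack *Tbx2*, had 3.38, 12.2 and 26.2 CPM, so that the OHC-like level was no higher than background.

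*Lhx3* was 3.32-fold higher in OHC-like cells (log2 1.73, SE 0.22, adjusted p = 0.000265 by edgeR), and its 3 OHC-like sums all lay above its IHC-like sums. *Ikzf2*, *Lhx3* and *Tbx2* passed the test with each library left out and under every other setting in which they were tested. *Barhl1* (log2 1.32, SE 0.21, adjusted p = 0.00104), *Gfi1* (log2 0.64, SE 0.14, adjusted p = 0.00732) and *Pou4f3* (log2 0.51, SE 0.14, adjusted p = 0.0206, all by edgeR) were higher in OHC-like cells within each of the 3 libraries, but their levels at different ages overlapped between the classes. Without the library term the adjusted p-values were 0.0701, 0.155 and 0.380. Without P28 replicate 1 they were 0.0697, 0.112 and 0.346, and without P28 replicate 2 *Gfi1* (0.0724) and *Pou4f3* (0.138) did not pass. With a library left out the log2 fold changes themselves ranged from 0.95 to 1.43 for *Barhl1*, 0.61 to 0.66 for *Gfi1* and 0.40 to 0.56 for *Pou4f3*. The median log2 fold change was 0.98 over the 6 factors and 0.05 over all genes.

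**Figure D2:**
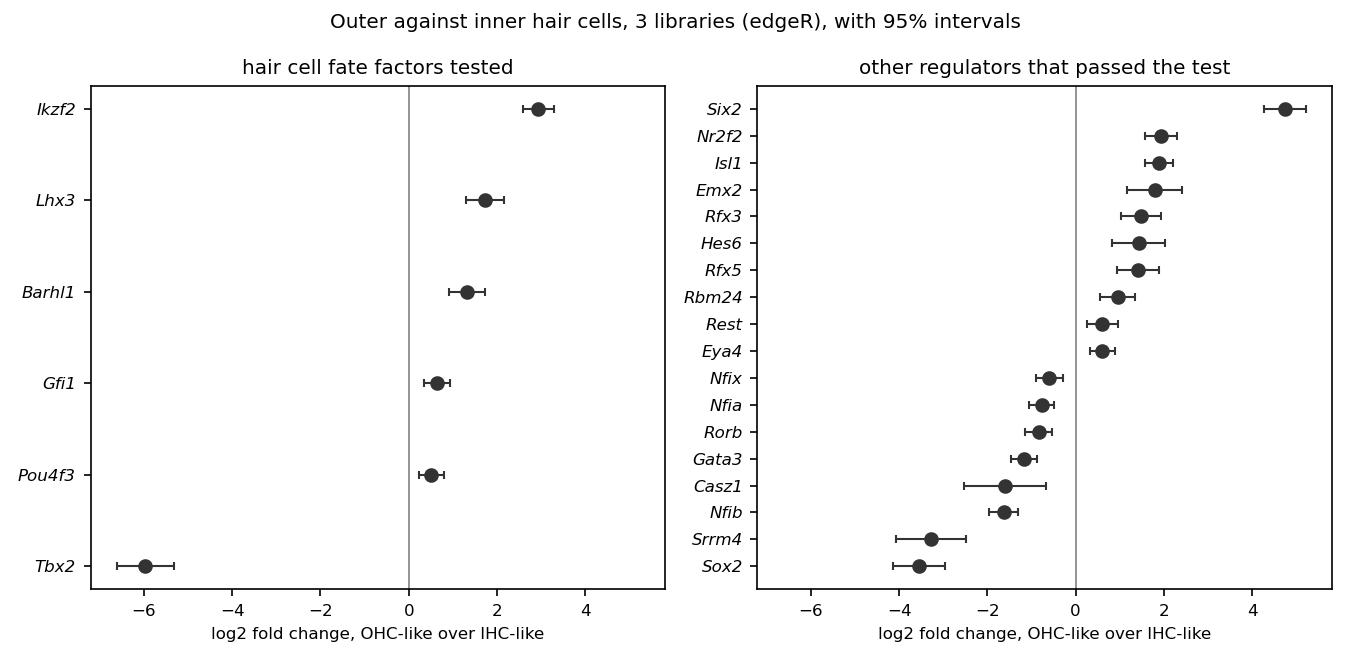
Log2 fold change of OHC-like over IHC-like cells (x axis) for the 6 factors tested (left) and the 18 other regulators that passed the test (right), with points for edgeR's estimate over 3 libraries and bars for 95% intervals. *Ikzf2* at 2.94 and *Tbx2* at -5.97 mark the 2 ends among the factors, and *Pou4f3* at 0.51 lies nearest to 0.

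Markers of neighbouring supporting cells were also found in IHC-like cells, and most *Ikzf2* UMIs there came from cells that held *Slc1a3*. *Slc1a3*, a glutamate transporter of the supporting cells beside IHCs, had a UMI in 21.7%, 74.3% and 77.6% of the IHC-like class but in 1.08%, 10.6% and 16.1% of the OHC-like class. The gene was not particular to those supporting cells. It had a UMI in 29.9%, 47.4% and 47.5% of all cells other than HCs, and in 17.7% and 27.0% of macrophage-like cells at P28. The 5 inner phalangeal and border cell markers summed to 432, 1450 and 1275 CPM among IHC-like cells, while OHC-like cells had 11.2, 163 and 199 CPM and the cells other than HCs 1226, 1588 and 1592 CPM. *Slc1a3* (194, 895 and 797 CPM) and *Gjb6* (214, 527 and 446 CPM) made up most of the IHC-like sum. *Sparcl1* was lower there at P28, with 22.7 and 25.2 CPM against 44.2 and 71.7 CPM in the OHC-like class. At least 1 UMI was found for 4, 4 and 5 of them in IHC-like and for all 5 in OHC-like cells, with *Matn4* at 0 in the IHC-like cells of P14 and of P28 replicate 1. *Ikzf2* in IHC-like cells lay at 71.3, 65.0 and 85.8 CPM (18, 63 and 51 UMIs). Of 132 *Ikzf2* UMIs in IHC-like cells, 130 came from cells that also had a UMI of *Slc1a3*, which held 86.4% of all UMIs of the class. Cells with *Slc1a3* had 112, 70.4 and 96.1 CPM of *Ikzf2*. Those without it had 18.3 CPM at P14 (2 UMIs) and 0 at P28, where a count of 0 allows up to 40.6 and 46.8 CPM. The intervals of both kinds of cells overlapped at P14 (63.8 to 181 and 2.22 to 66.2 CPM) but not at P28. The cells without *Slc1a3* were also much shallower, with medians of 943, 1148 and 2042 UMIs against 10170, 10673.5 and 8709. This split was chosen after the data were seen, and the part of supporting cell RNA and of depth in it was not tested.

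*Tbx2* was found on both sides of that split. It lay at 307, 496 and 471 CPM among IHC-like cells with *Slc1a3* and at 220, 433 and 374 CPM in those without it (24, 32 and 24 UMIs), and the intervals overlapped in every library. There were 139 *Tbx2* UMIs per 100 of *Slc1a3* in the IHC-like cluster of P14 and 53.3 and 57.1 in the larger one of P28. In the clusters richest in *Tbx2* outside HCs there were 25.6 at P14 (led by *Rbp7*) and 22.7 and 23.5 at P28 (led by *Slitrk6*). These clusters were picked by their *Tbx2* level, and the part of supporting cell RNA in the *Tbx2* of IHC-like cells was not tested. *Pou4f3* in cells without *Slc1a3* was at 980, 298 and 733 CPM. When HCs with a UMI of *Slc1a3* were left out, the log2 difference of OHC-like over IHC-like cells was 6.21 for *Ikzf2* and -5.91 for *Tbx2*, and both were called. The value of *Ikzf2* rests on 2, 0 and 0 UMIs in IHC-like cells, so its size depends on the prior count. *Barhl1* (adjusted p = 0.0952), *Gfi1* (0.399) and *Pou4f3* (0.217, edgeR) were then not called. Against the cells other than HCs, the fitted value of *Ikzf2* in IHC-like cells turned from 0.16 to -3.22, which rests on the same 2 UMIs and is no measure of size. The limits of 40.6 and 46.8 CPM lay below the non-hair levels of 62.1 and 53.1 CPM at P28. These limits of 3 counts are lower than an exact interval would give at 0, so the shortfall in P28 replicate 2 is not secure. The P14 interval included the non-hair level of 54.1 CPM.

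**Figure D3:**
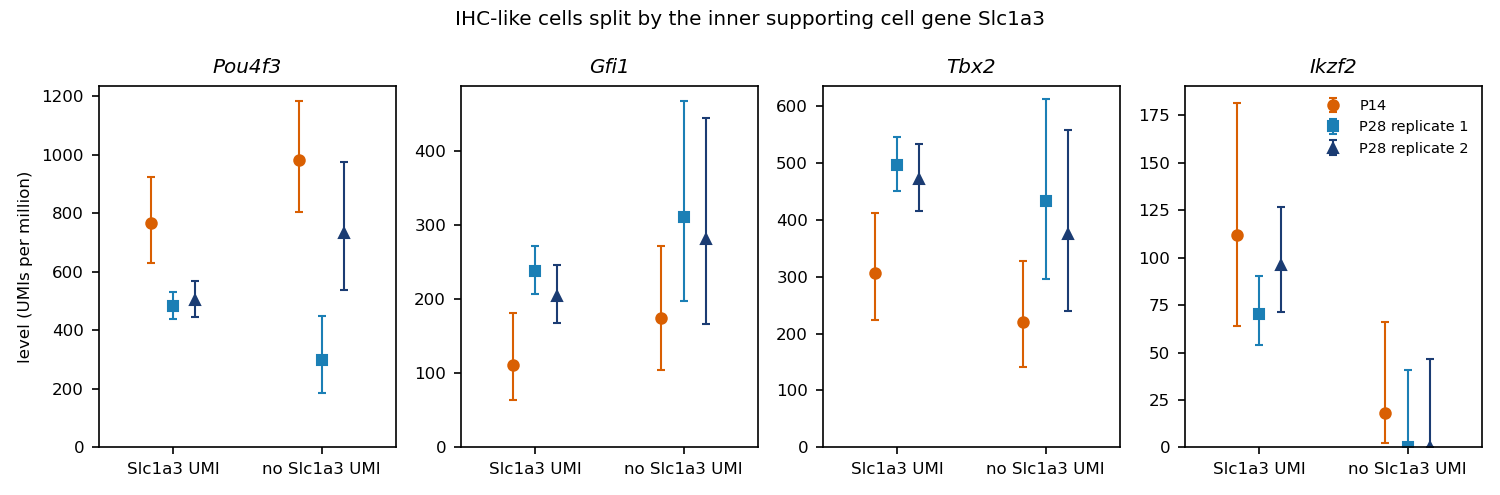
Levels of *Pou4f3*, *Gfi1*, *Tbx2* and *Ikzf2* (CPM, linear axes that differ between panels) in IHC-like cells with and without a UMI of *Slc1a3*, 1 point per library with its exact 95% Poisson interval (at a count of 0, up to the limit of 3 counts). *Tbx2* stays between 220 and 496 on both sides, whereas *Ikzf2* lies at 18.3, 0 and 0 in the cells without *Slc1a3*, with intervals that overlap those of the other cells at P14.

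The 2 fate factors also differed within single cells. A UMI of both *Ikzf2* and *Tbx2* was found in 1, 12 and 13 OHC-like cells, and of *Ikzf2* alone in 259, 320 and 234. In IHC-like cells 8, 39 and 26 cells had both and 13, 55 and 42 had *Tbx2* alone. *Ikzf2* made up 99.9%, 98.6% and 97.7% of the UMIs of the pair in OHC-like cells and 20.9%, 11.7% and 15.7% in IHC-like cells. IHC-like cells with both genes were deep, with medians of 13185, 12793 and 10218 UMIs, and the part of doublets and of free RNA in them was not tested.

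Outside HCs, *Ikzf2* and *Tbx2* had different places. *Ikzf2* was highest, among named classes other than HCs, in cells like Deiters and pillar cells (DC/PC-like), the supporting cells under the OHCs, at 125, 246 and 231 CPM. Their log2 fold change over the other non-hair cells was 1.90 (SE 0.25, adjusted p = 0.00108 by edgeR, where 7.3% of genes were higher), and it passed in every setting in which the class was found. At a clustering resolution of 2 the class had 0 cells at P28, so the call could not be tested. *Tbx2* in the same class was at 134 CPM at P14 but at 3.19 and 26.4 CPM at P28 (1 and 4 UMIs). The class also differed in make-up. At P14 it had 526 CPM of *Slc1a3* and 257 CPM of *Fgfr3*, a marker of the class. At P28 it had 57.5 and 112 CPM of *Slc1a3* and 498 and 488 CPM of *Fgfr3*. Age and make-up cannot be told apart here. Over the 3 libraries the log2 fold change of *Tbx2* was 0.08 (SE 0.86, adjusted p = 0.969), and without the P14 library it was lower, by -2.57 (adjusted p = 1.34e-05 by edgeR).

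A P28 cluster of 625 cells led by *Slitrk6*, *Far1*, *Dgkb* and *Lfng* was highest in *Tbx2* outside HCs, at 446 and 465 CPM, and had 220 and 229 CPM of *Ikzf2*. The counting intervals of *Tbx2* there and in IHC-like cells overlapped. This cluster held 3 markers of DC/PC but hardly any *Fgfr3* (3.58 and 9.12 CPM), a defining gene of these cells. It had 1968 and 1980 CPM of *Slc1a3*, in 94.4% and 95.6% of its cells, against 57.5 and 112 CPM in the DC/PC-like cluster of P28, and 1067 and 1048 CPM of *Gjb6*. The other inner phalangeal and border cell markers were not high there. *Matn4* was at 2.15 and 0 CPM and *Fabp7* at 27.9 and 27.3 CPM. *Sparcl1*, at 60.9 and 122 CPM, was below the 713 and 751 CPM of all cells other than HCs. The cluster was left unnamed after its values were seen. That choice decided a call: with the cluster counted as DC/PC-like, *Tbx2* was higher there, with a log2 difference of 3.02 (SE 0.22, adjusted p = 0.000785 by edgeR) and *Ikzf2* by 2.09. Thus the 2 genes were high together in this cluster, while *Ikzf2* was high with little *Tbx2* in the DC/PC-like cells of P28. Across all clusters outside HCs the medians were 39.9, 49.3 and 35.9 CPM for *Ikzf2* and 13.9, 14.1 and 23.1 CPM for *Tbx2*.

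**Figure D4:**
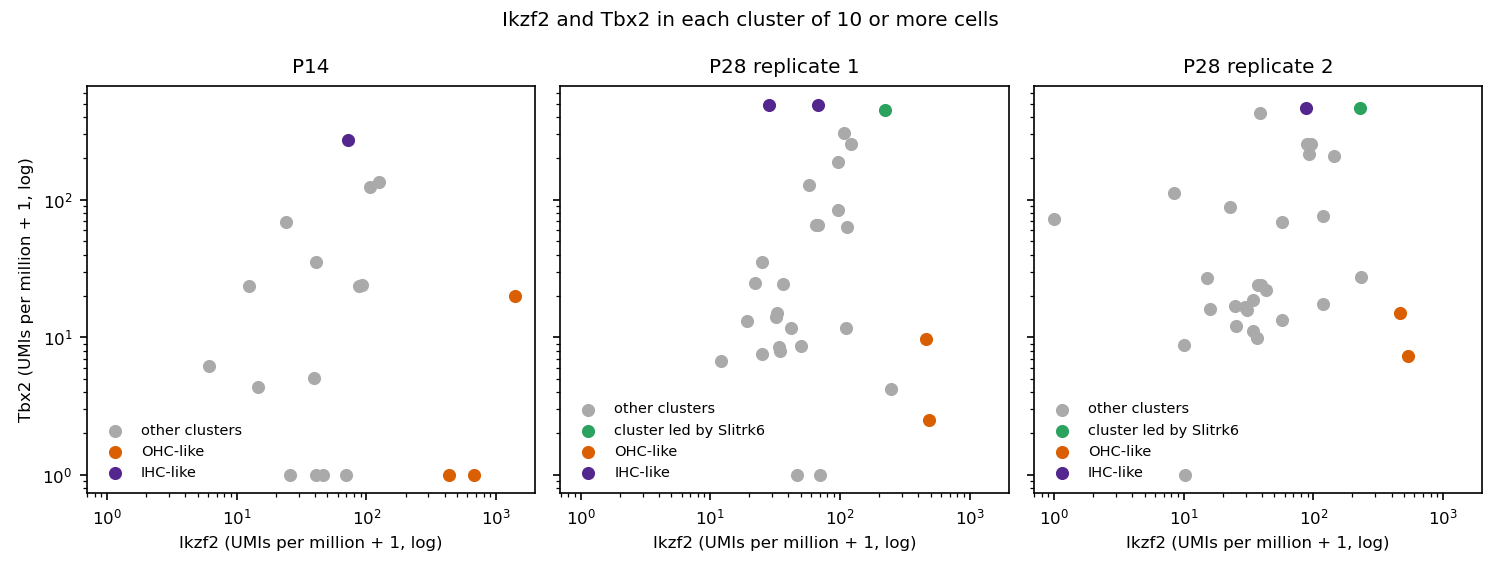
*Ikzf2* (x axis) and *Tbx2* (y axis), both as CPM plus 1 on log axes, in each cluster of at least 10 cells, 1 panel per library. OHC-like clusters lie at the lower right, IHC-like clusters at the top, the *Slitrk6*-led cluster near the IHC-like level of *Tbx2* at 446 and 465, and most other clusters at low values of both.

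High *Tbx2* was also found in other nonsensory clusters. Intermediate cell-like cells, the pigment cells of the stria vascularis, had 393 CPM in P28 replicate 2, and nearly all of them came from that library. An unnamed cluster led by *Tcap*, *Slc26a4* and *Otoa* had 305 and 254 CPM, and one led by *Vmo1*, a gene of Reissner's membrane, had 255 CPM in P28 replicate 1. In cells like those of Reissner's membrane at P14 the level was 124 CPM. Spiral ganglion neuron-like cells at P28 had 8.47 and 8.02 CPM of *Tbx2* and 12.6 and 10.2 CPM of *Ikzf2*.

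Across the 7 non-hair classes present in all libraries, 7 pairs of a factor and a class passed the test. Only 2 of the 8 factors were tested in each class, or 3 in that of inner sulcus, Hensen and outer sulcus cells. Besides *Ikzf2* in DC/PC-like cells, *Tbx2* was lower in cells like tympanic border cells (TBC-like, log2 -2.90, adjusted p = 4.18e-06, where 29.9% of genes were lower) and in macrophage-like cells (-1.97, adjusted p = 0.00719, where 13.7% were). These 2 passed whichever library was left out. In fibrocyte-like cells *Tbx2* was lower by -2.64 (adjusted p = 0.0182, where 7.3% of genes were lower and 2.71% higher), but not without P28 replicate 1 (adjusted p = 0.118). The other 3 calls were lost without either P28 replicate. They were *Ikzf2* (log2 0.81, adjusted p = 0.0375, where 17.7% of genes were higher) and *Tbx2* (0.69, adjusted p = 0.0131) in the class of inner sulcus, Hensen and outer sulcus cells, and *Ikzf2* in TBC-like cells (-0.65, adjusted p = 0.0108). Without P28 replicate 1 their adjusted p-values were 0.761, 0.195 and 0.604, and without P28 replicate 2 they were 0.878, 0.386 and 0.322, all by edgeR. No factor passed in red blood cell-like cells, where 0.688% of genes were higher and 0.246% lower, or in Schwann and satellite glia-like cells (0.969% and 0.318%).

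Age was described and not tested, since P14 was sequenced once. A P14 level is called outside the P28 levels only where its 95% Poisson interval overlapped neither of theirs. In OHC-like cells *Pou4f3* fell outside above, at 1015 CPM against 671 ± 42.2 CPM at P28 (SD, n = 2), a 1.51-fold difference, and so did *Ikzf2* at 621 against 479 ± 18.1 CPM (1.30-fold). Lying above both P28 libraries was the case for 21.1% of 4017 genes with at least 50 CPM. *Gfi1* at P14 (199 CPM) was below P28 (320 ± 36.2 CPM, SD, n = 2), a 1.60-fold difference. *Barhl1* showed the largest difference of the abundant factors, 52.8 CPM against 137 ± 21.1 CPM (2.59-fold). For 22.7% of genes P14 was below both. *Lhx3* overlapped, at 67.7 CPM against 72.7 ± 9.54 CPM (SD, n = 2). *Pou4f3* and *Gfi1* thus differed in opposite directions between these ages in the same cells.

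In IHC-like cells *Pou4f3* was again above at P14, 860 CPM against 498 ± 42.2 CPM (SD, n = 2), where 11.3% of 4555 genes were. *Tbx2* was below, 269 CPM against 476 ± 21.5 CPM (1.77-fold), where 12% of genes were. *Gfi1* (139 against 228 ± 22.4 CPM) and *Barhl1* (35.7 against 57.8 ± 8.71 CPM, both SD, n = 2) differed by 1.64-fold and 1.62-fold with overlapping intervals. *Ikzf2* and *Lhx3* overlapped as well. The IHC-like cells of P14 were of low depth and those of P28 mostly of high depth and rich in *Slc1a3*, and age and these properties cannot be told apart. After each cell was thinned to 1000 UMIs, the factors outside were *Pou4f3* and *Barhl1* in OHC-like cells and none in IHC-like cells. The log2 ratios of P14 over P28 kept their direction, at -0.87 against -0.68 for *Gfi1* and 0.35 against 0.37 for *Ikzf2* in OHC-like cells. In IHC-like cells they were 0.72 against 0.79 for *Pou4f3* and -1.47 against -0.82 for *Tbx2*, on fewer UMIs. The median log2 ratio of P14 over P28 across all genes was -0.04 in OHC-like and -0.07 in IHC-like cells.

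**Figure D5:**
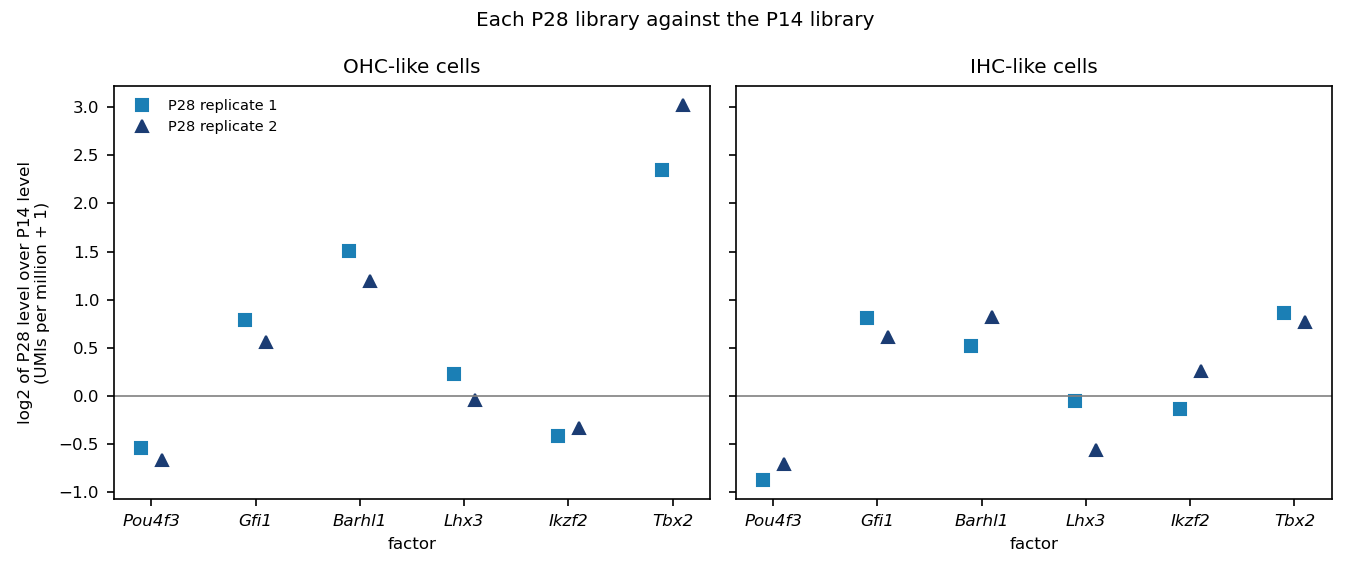
Log2 ratio of each P28 library over the P14 library (CPM plus 1, y axis) for 6 factors in OHC-like (left) and IHC-like cells (right), 1 point per P28 replicate. *Pou4f3* lies below 0 and *Gfi1* and *Barhl1* above 0 in both classes and both replicates. The points of *Tbx2* in OHC-like cells rest on 1 UMI at P14.

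*Insm1* and *Atoh1* were too sparse to be tested between classes in the reported fit. With no filter on low counts all 8 factors were called between OHC-like and non-hair cells, beside 3099 genes higher and 4321 lower of 21707. For these 2 factors that call rests on the few UMIs given here. *Insm1* had 14 UMIs in the OHC-like cells of P14 (7.46 CPM, 95% interval 4.08 to 12.5) but 1 UMI in those of each P28 replicate (0.401 and 0.717 CPM). It was not found in IHC-like cells, and the non-hair cells had 5, 0 and 0 UMIs. *Atoh1* had 1, 9 and 0 UMIs in OHC-like cells and 0 in IHC-like cells, which at this depth allows up to 11.9 CPM at P14 and 5.05 CPM in P28 replicate 2. The 9 UMIs of P28 replicate 1 (3.61 CPM, interval 1.65 to 6.86) stand beside 0 in replicate 2 (up to 2.15 CPM), and the intervals overlapped.

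Detection per cell depends on depth, so each cell was thinned to 1000 UMIs and shallower cells were left out (17, 2 and 0 OHC-like and 29, 14 and 4 IHC-like). A UMI of *Pou4f3* was then found in 57.3%, 47.7% and 45.3% of OHC-like cells, and of *Ikzf2* in 49.6%, 40.3% and 42.5%. The shares were 15.4%, 28.2% and 23.2% for *Gfi1* and 3.46%, 15.9% and 13.0% for *Barhl1*. In IHC-like cells *Pou4f3* was found in 48.4%, 33.3% and 40.3% and *Tbx2* in 16.1%, 33.3% and 31.9%. Red blood cell-like and macrophage-like cells, taken as the background, held a UMI of *Pou4f3* in 0 of 78, 295 and 472 cells, of *Ikzf2* in 1.28%, 0.678% and 2.33%, and of *Tbx2* in 1.28%, 1.36% and 1.69%. The intervals of 4 factors in OHC-like cells (*Pou4f3*, *Gfi1*, *Ikzf2* and *Lhx3*) and of *Pou4f3* in IHC-like cells lay above background in every library. Without thinning, *Pou4f3* was joined in IHC-like cells by *Gfi1*, *Barhl1* and *Tbx2*. Without thinning, 5, 4 and 1 OHC-like and 14, 12 and 3 IHC-like cells had a UMI of none of the 8 factors.

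A list of 30 other regulators of HC and ear development gives the setting of these factors. Of 26 tested between OHC-like and IHC-like cells, 10 were higher in OHC-like cells, 8 lower and 8 neither, beside 16.8% and 17.1% of all genes. With no library term 6 were higher and 4 lower, beside 780 and 920 of 9484 genes. Without P28 replicate 1 they were again 6 and 4 (683 and 830 of 9297 genes), and without P14 15 and 10 (2349 and 2557 of 9967). Without cells over 3000 genes or 15000 UMIs they were 5 and 2 of 23 (474 and 440 of 6599 genes). *Six2*, a homeobox gene, showed the largest difference, at 505, 359 and 321 CPM among OHC-like cells, beside 15.8, 11.4 and 20.2 CPM in the IHC-like class (log2 4.74, SE 0.24, adjusted p = 1.37e-06 by edgeR). *Nr2f2* (1.94), *Isl1* (1.89) and *Emx2* (1.79) followed. Smaller differences in the same direction were found for *Rfx3* (1.48), *Hes6* (1.42), *Rfx5* (1.41), *Rbm24* (0.95), *Rest* (0.60) and *Eya4* (0.60). *Rest* represses neuronal genes and *Srrm4* is the splicing factor that acts against it in HCs. *Srrm4* was lower in OHC-like cells (-3.27), on 8, 5 and 4 UMIs there and 12, 29 and 11 in IHC-like cells. A relation of its level to that of *Rest* was not tested.

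Lower too were *Sox2* (-3.56), *Nfib* (-1.64), *Casz1* (-1.60), *Gata3* (-1.17), *Rorb* (-0.83), *Nfia* (-0.77) and *Nfix* (-0.60). *Casz1* was nevertheless higher in OHC-like cells at P14, with 60.8 against 47.5 CPM, and lower in both P28 libraries. *Sox2*, a gene of supporting cells, was at 19.8, 246 and 264 CPM among IHC-like cells. With the HCs holding *Slc1a3* left out, 24 regulators were tested, of which 6 were higher and 2 lower, and *Six2* (5.80), *Isl1* (3.55) and *Nr2f2* (3.50) were still among those called higher, with *Rfx5* (2.19). Of the 8 called lower before, *Rorb* (-0.90) was still called, while *Nfix* turned to 0.48 and *Nfia* to 0.03. *Casz1*, *Gata3* and *Nfib* did not pass, nor did *Emx2*, *Hes6*, *Rfx3*, *Rbm24*, *Rest* and *Eya4*. *Eya1* (2.70), *Nr2f1* (1.01) and *Srrm3* (-1.03) were called there but not in the reported fit, and *Srrm4* and *Sox2* were not tested. In all HCs *Nr2f1* was at 290, 576 and 623 CPM in the OHC-like class and 258, 1011 and 1029 CPM in the IHC-like class. Of the 13 relatives of the factors by family, only *Ikzf5* could be tested between the HC classes (log2 0.41, adjusted p = 0.141 by edgeR). In OHC-like cells the P14 level of 20 regulators with at least 50 CPM lay below both P28 libraries for 11 and above both for 4, beside 22.7% and 21.1% of all genes. In IHC-like cells 8 of 19 lay below and 3 above, beside 12% and 11.3% of all genes.

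The profile of each factor was compared with all other genes over 36 sums of a class in a library, by Pearson's r of log2(CPM + 10). These sums share libraries and depth, so the values are descriptions. Only named classes entered, so the *Slitrk6*-led cluster, high in both *Ikzf2* and *Tbx2*, and the other unnamed clusters were left out. The sums held 1852 of the 3837 *Tbx2* UMIs and 4563 of the 5876 *Ikzf2* UMIs in the kept cells. *Pou4f3* was most like *Gm4131* (0.991) and *Tomt* (0.986), and *Gfi1* most like *A530016L24Rik* (0.992), *Gm30373* (0.987) and *Gipc3* (0.983). *Tomt*, which HCs need for mechanotransduction, was at 308, 308 and 300 CPM among OHC-like cells, with 261, 164 and 177 CPM in the IHC-like class. *Lhx3* came nearest to *Gm5111* (0.988), *Dytn* (0.986) and *Gm17108* (0.985), and *Barhl1* to *Gm32742* (0.982), *Lrtm2* (0.982) and *Gm30373* (0.980). *Ikzf2* had less close neighbours, *Acsl1* (0.887), *Gm45716* (0.881) and *Arhgef16* (0.872), and those of *Tbx2* were *Shtn1* (0.820), *Tyro3* (0.809) and *Meltf* (0.789). Among the factors themselves r was 0.97 for *Pou4f3* and *Gfi1*, 0.98 for *Gfi1* and *Barhl1*, 0.98 for *Lhx3* and *Barhl1* and 0.07 for *Ikzf2* and *Tbx2*.

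In the GENCODE M21 annotation of GRCm38, *Gfi1* lies on chromosome 5 (107716657 to 107726036), *Ikzf2* on chromosome 1 (69531214 to 69687245), and *Lhx3* and *Barhl1* on chromosome 2 (26200212 to 26208289 and 28907679 to 28916668), all on the minus strand. On the plus strand are *Insm1* on chromosome 2 (146221921 to 146225020), *Tbx2* on chromosome 11 (85832551 to 85841948) and *Atoh1* on chromosome 6 (64729125 to 64731245). *Gfi1*, *Ikzf2* and *Lhx3* overlap antisense genes (A430072P03Rik, Gm29114 and Gm27196). The 2 transcripts Gm29112 and Gm28112 lie within introns of *Ikzf2* on its own strand, so some intronic reads of *Ikzf2* could be assigned to them.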

How the data were processed

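Each sample is a library of dissociated cochlear cells made with the Chromium 3′ kit v3.1. The authors deposited raw UMI counts per gene and called cell barcode, without normalization. The matrix headers name Cell Ranger 5.0.1, whereas the submitters' processing notes name 6.0.1 and the build mm10. Everything else was computed here.

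Clusters came from Seurat 5.3.0 (R 4.3.3; 2000 variable genes, 30 principal components, resolution 1, P28 libraries integrated), with the 8 factors and both gene lists (51 genes in all) taken out of the variable genes. At P14 13 of 18 clusters were named, and at P28 24 of 32. A name needed 3 markers of 22 types at a log2 ratio of 1 over the median cluster and in 5% of cells. Clusters led by *Phex* (first named pericyte-like) and the *Slitrk6*-led one (first named DC/PC-like) were unnamed after their values were seen. Sums needed 10 cells. Tests used edgeR 4.0.16 (TMM, default expression filter, threshold 0.05) with a library term. The term pairs classes taken from 1 library, and so from the same mice. Deviations of OHC-like and IHC-like sums from their class means correlated by 0.63, 0.54 and 0.47 within a library. Those of OHC-like and non-hair sums correlated by 0.36, 0.38 and 0.36, and those of IHC-like and non-hair sums by 0.25, 0.22 and 0.26. Age differences that the classes share enter these values too, and their part was not tested. In simulated counts where 200 genes differed 4-fold, edgeR recovered 100% for OHC-like against IHC-like cells (9484 genes), 98.5% for OHC-like (13010 genes) and 94% for IHC-like against non-hair cells (12672 genes). In the same order 9, 2 and 2 unchanged genes were called. These counts had the same dispersion for every gene and no differences between libraries other than depth, so they are simpler than the real sums.

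Intervals are exact (95%) and cover counting error alone. A count of 0 was given the limit of 3 counts, which is lower than the exact interval would give. Age ratios added 1 CPM to each level. Scrublet in scanpy 1.11.5 called 1, 0 and 1 doublets and so did not work as a caller. No doublets were removed, and the 5% of cells with the highest scores were left out as an alternative. Barcodes shared between libraries numbered 4, 7 and 10. Other alternatives were DESeq2 1.42.0, no TMM factors, no library term, 2 other count filters, each library left out, 30% mitochondrial UMIs, a resolution of 2, cells under 3000 genes and 15000 UMIs, no nucleus-like clusters and a gate on 3 marker genes. The 8 genes are named throughout, with the genes of both lists called between OHC-like and IHC-like cells and the 3 most alike genes of each factor with at least 30 UMIs, of which 1 is not reported here. The factors and lists were chosen with earlier results of these data known.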

Additional observations from a re-analysis of the deposited data

How the results depend on the processing

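Of 259 log2 fold changes of the factors under alternatives, 241 kept their direction and side of the threshold, 15 lost significance and 3 reversed. All 15 were *Pou4f3*, *Gfi1* or *Barhl1* between OHC-like and IHC-like cells. The reversed ones were *Ikzf2* in IHC-like against non-hair cells, at -0.0663 with 10 UMIs required in every sum, -1.24 without cells over 3000 genes or 15000 UMIs, and -3.22 without HCs holding *Slc1a3*. Between OHC-like and IHC-like cells 3212 of 9484 genes tested and 6 factors were called. The genes called were 1679 of 4297 with 10 UMIs in every sum and 914 of 6599 without cells over 3000 genes or 15000 UMIs. They were 2016 of 9484 by DESeq2 and 1067 of 7421 without HCs holding *Slc1a3*. With no replicate block, that is without pairing the classes by library, they were 1700 of 9484. With each library left out they were 1513 of 9297 (without P28 replicate 1) to 4906 of 9967 (without P14). In the other comparisons too the lowest counts came without P28 replicate 1 and the highest without P14. The factors called were 3 with 10 UMIs in every sum, without HCs holding *Slc1a3* and with no replicate block, and 3 to 6 with a library left out. For OHC-like against non-hair cells (6995 of 13010 genes, 6 factors), 10 UMIs in every sum gave 4415 of 8590 genes and 3 factors. No filter on low counts gave 8 factors, beside 3099 genes higher and 4321 lower of 21707. Leaving out a library gave 2528 of 12968 to 10456 of 15098 genes with 6 factors. For IHC-like against non-hair cells (4512 of 12672 genes, 5 factors), the filter gave 1854 of 4381 genes and 3 factors. The limit of 3000 genes gave 3 factors, and leaving out a library 1798 of 12611 to 7790 of 15022 genes with 5 factors. With the filter of 10 UMIs the loss of factors follows from those that were no longer tested. The same holds for the limit of 3000 genes in IHC-like against non-hair cells, where each factor called before and still tested passed. For the other changes the cause was not tested. Pairs of a factor and a non-hair class called numbered 7 in the reported fit, 4 by DESeq2, 2 with 10 UMIs in every sum, 4 with 30% mitochondrial UMIs, 4 with no replicate block and 3 to 10 with a library left out, where the 10 without P14 include *Tbx2* in DC/PC-like and *Ikzf2* in fibrocyte-like and macrophage-like cells. With the *Slitrk6*-led cluster named DC/PC-like they were 8. In OHC-like cells 6 factors lay outside both P28 libraries at P14 (*Insm1* and the background-level *Tbx2* included), 2 after thinning to 1000 UMIs and 3 without cells over 3000 genes or 15000 UMIs. In IHC-like cells 2 did, and 0 after thinning, without such cells, or without *Slc1a3*. Without thinning, 4 factors in IHC-like cells had shares above background, against 1. Of 90 age ratios under alternatives, 67 moved by less than the spread between replicates. Depth limits *Atoh1* and *Insm1* throughout and *Lhx3* and *Barhl1* in IHC-like cells, and with 1 library at P14 no age difference has a replicate check.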

Other observations

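The factors also varied among OHC-like clusters, which were built without them. At P14 the main cluster (194 cells) had 961 CPM of *Pou4f3* and 675 CPM of *Ikzf2*, and a cluster of 50 cells led by *Calb1* had 1187 and 432 CPM. Another cluster of 33 cells, in which *Malat1* took 16.2% of the UMIs, had 457 CPM of *Pou4f3* but 1389 CPM of *Ikzf2* (24 and 73 UMIs). *Lhx3* was not found in it, with 0 UMIs allowing up to 57.1 CPM. At P28 the deeper of the 2 OHC-like clusters had 829 and 814 CPM of *Pou4f3* in the 2 replicates, against 653 and 552 CPM in the other, and 171 and 168 CPM of *Barhl1* against 145 and 97.9 CPM. Median depths of these clusters were 9402 and 4684 UMIs, and the part of depth in these differences was not tested.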
